A study of Mus musculus with 8 samples.

Results

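The genes described here are 10 genes of histone H3 lysine 9 (H3K9) methylation and its readers, the HP1 proteins, in the mouse fetal ovary at E14.5. They were chosen by symbol as *Setdb1*, *Ehmt1*, *Ehmt2*, *Suv39h1*, *Suv39h2*, *Trim28*, *Atf7ip*, *Cbx1*, *Cbx3* and *Cbx5*, which are 10 of the 25239 genes counted. All 10 were among the 14249 genes with enough counts to be tested. RNA-Seq was performed on 4 control pools (*Bmpr1a* fl/fl) and 4 *Bmpr1a*-cKO pools (*Bmpr1a* fl/fl; *Oct4-Cre* Cre/WT), all on a C57BL/6 background. Each library held the pooled ovaries of 2 embryos, with 8 embryos per genotype drawn from 6 litters in all. The dams of all embryos had received 1 mg of 4-hydroxytamoxifen and 0.5 mg of progesterone by injection on 3 days, at 9.5, at 10.5 and at 11.5 dpc. The floxed alleles were therefore shared by both groups, and only the Cre driver, which acts in *Oct4*-expressing germ cells, differed. Whole ovaries were used, so that germ cells and somatic cells contributed to every value, and fewer cells of a type and less RNA per cell cannot be told apart.

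Methylation of H3K9 marks silent chromatin. SETDB1 places the trimethyl mark at retrotransposons and at some germline genes, where it is brought by the corepressor TRIM28 (KAP1), itself recruited by KRAB zinc finger proteins, and it is kept stable and in the nucleus by its partner ATF7IP. EHMT2 (G9a) and EHMT1 (GLP) form a heterodimer that places the dimethyl mark in euchromatin, and SUV39H1 and SUV39H2 trimethylate pericentric heterochromatin. The HP1 proteins encoded by *Cbx5* (HP1α), *Cbx1* (HP1β) and *Cbx3* (HP1γ) bind the methylated lysine through a chromodomain. Fetal germ cells lose most of their DNA methylation, and SETDB1 is known to restrain retrotransposons in primordial germ cells.

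Before the results, the libraries themselves were compared. Total counts ran from 8562961 to 15365052 per library, and *Rn45s*, the 45S pre-ribosomal RNA, took 13.1% to 16.7% of them. No 2 libraries held identical counts. The germ cell marker *Ddx4* was present in every library at 106 to 179 CPM (read counts scaled to a common library total), and the pregranulosa marker *Foxl2* at 72.9 to 122 CPM. *Bmpr1a* itself measured 199, 237, 220 and 216 CPM in controls and 185, 195, 190 and 209 CPM in *Bmpr1a*-cKO (Log2FC -0.16, SE 0.064, FDR = 0.0692 by edgeR), and since somatic cells keep the gene and the counts cover its whole length, it is no check of the labels.

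Several marker lists moved between the genotypes, and their part in the results for the 10 genes was not tested. The counts here are of markers with an FDR below 0.05, at which 17.3% of all genes tested were higher and 12.5% lower. Genes of G2 and M phase were higher for 17 of 20 and lower for 2, and their summed level of 2106 to 2245 CPM in controls did not overlap the 2761 to 2987 CPM of *Bmpr1a*-cKO. Genes of S phase were higher for 10 of 16, with a summed level of 1820 to 2109 CPM against 2271 to 2395 CPM. Among 8 pregranulosa markers 7 were lower (1375 to 1650 CPM against 1165 to 1387 CPM), and among 5 tested macrophage markers 4 were higher (21.7 to 28.4 CPM against 32.5 to 41.0 CPM). Of 9 germ cell markers 3 were higher and 2 lower. Their summed level was 767, 866, 1023 and 785 CPM in controls and 776, 1037, 1071 and 1211 CPM in *Bmpr1a*-cKO, so that *Bmpr1a*-cKO library 1 lay within the control range. No marker of stroma, endothelium, erythroid cells or mesonephros passed the test, and of 4 tested Sertoli markers 1 was lower. The erythroid genes *Hba-a1* and *Hbb-bt* stood at 0 in all libraries.

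At an FDR below 0.05, 4 of the 10 genes were higher in *Bmpr1a*-cKO ovaries (*Trim28*, *Atf7ip*, *Suv39h2* and *Cbx5*) and 1 was lower (*Setdb1*). Across all genes tested, 29.8% passed that threshold, 17.3% higher and 12.5% lower. The 10 genes were chosen with earlier results of these data known, so these shares are given as a description. None of the 10 was a DEG, a gene that also has an absolute Log2FC over 0.5, a status that 10.2% of all genes reached. The 10 Log2FC values had a median of 0.19, against -0.0042 for all genes tested. The libraries of the genotypes did not overlap for *Setdb1*, *Trim28* and *Atf7ip*, and they failed to overlap for 27.9% of all genes. When libraries were scaled to the germ cell markers in place of TMM, all 5 called genes kept their direction but none was called (FDR = 0.240 to 0.778 by edgeR). Of the 9 markers used, 3 were themselves called higher and 2 lower, so that scaling does not measure germ cell number alone. Among all genes that scaling called 495 higher and 560 lower, each with an absolute Log2FC over 0.5. The 5 genes stayed under that size, so this fit could not decide on them.

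The upstream sequences of the called genes are shown because the data concern their transcript levels. They come from RefSeq on GRCm38.p6 (mm10), run 5′ to 3′ on the strand of the gene and end at the base before the RefSeq start. The exceptions are *Atf7ip* and *Suv39h2*, where the sequence nearest to the start lies in exons and is left out. The gene spans given below follow GENCODE, and the RefSeq starts used for *Trim28*, *Atf7ip* and *Suv39h2* lie inside those spans. For *Setdb1* the window is chr3:95357203-95357452 (minus strand), which also lies in an exon of *Gm37500*, an unclassified model on the other strand. That of *Trim28* is chr7:13023902-13024151 (plus strand), that of *Atf7ip* chr6:136518601-136518801 (plus strand), that of *Suv39h2* chr2:3475032-3475236 (minus strand), and that of *Cbx5* chr15:103239853-103240102 (minus strand). Capitals mark matches, on either strand, to one of the 6 motifs that were searched.
*Setdb1*: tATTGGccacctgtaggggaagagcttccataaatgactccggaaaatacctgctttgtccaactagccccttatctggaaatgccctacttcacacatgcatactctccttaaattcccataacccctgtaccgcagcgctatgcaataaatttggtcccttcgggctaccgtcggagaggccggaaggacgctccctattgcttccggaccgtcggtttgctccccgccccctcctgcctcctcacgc
*Trim28*: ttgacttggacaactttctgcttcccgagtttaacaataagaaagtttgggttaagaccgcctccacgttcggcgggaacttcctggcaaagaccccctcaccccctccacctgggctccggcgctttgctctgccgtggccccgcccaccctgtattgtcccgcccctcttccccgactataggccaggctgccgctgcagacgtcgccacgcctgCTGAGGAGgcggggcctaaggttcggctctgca
*Atf7ip*: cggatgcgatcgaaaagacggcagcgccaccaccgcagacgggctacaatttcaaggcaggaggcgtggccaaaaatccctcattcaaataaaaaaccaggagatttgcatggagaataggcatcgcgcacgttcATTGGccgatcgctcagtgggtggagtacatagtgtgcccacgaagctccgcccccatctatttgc
*Suv39h2*: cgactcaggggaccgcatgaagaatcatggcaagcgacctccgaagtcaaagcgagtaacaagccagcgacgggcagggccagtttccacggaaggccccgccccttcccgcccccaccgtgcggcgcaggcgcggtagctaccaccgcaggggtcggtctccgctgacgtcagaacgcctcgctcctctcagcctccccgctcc
*Cbx5*: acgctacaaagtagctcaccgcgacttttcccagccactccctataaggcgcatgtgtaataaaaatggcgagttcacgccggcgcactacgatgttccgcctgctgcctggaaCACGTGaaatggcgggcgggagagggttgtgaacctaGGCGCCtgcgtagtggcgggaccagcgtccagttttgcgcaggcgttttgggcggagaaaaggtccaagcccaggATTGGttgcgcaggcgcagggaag

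The motifs, searched on both strands in the 250 bases before each start, were the E2F sites TTTCCCGC and TTTGGCGC, the CCAAT box, the E-box CACGTG, the palindrome GGCGCC and the partial site CNCCTCAG. GGCGCC can share bases with TTTGGCGC. Of 32851 promoters in the same table, 0.895% and 0.417% held the E2F sites, 33.8% held CCAAT, 6.02% CACGTG, 9.59% GGCGCC and 6.42% CNCCTCAG. *Setdb1* held only a CCAAT box, read on the other strand as ATTGG and beginning 249 bases upstream. *Trim28* held a single CNCCTCAG at 33 bases, and *Atf7ip* a single CCAAT box at 115 bases. In the window shown, *Cbx5* held CACGTG at 136, GGCGCC at 99 and a CCAAT box at 24 bases. The promoter of *Suv39h2* held none of these letters. No promoter of the called genes held either E2F site, and *Cbx3* had TTTGGCGC at 168 bases before one of its starts. These matches are descriptions of the windows.

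*Setdb1* (chr3:95323525-95357202, minus strand), which encodes the enzyme that trimethylates H3K9 outside pericentric regions, was the only one of the 10 genes that was called lower. It measured 215, 208, 233 and 222 CPM in control libraries and 173, 169, 178 and 184 CPM in *Bmpr1a*-cKO libraries. Every *Bmpr1a*-cKO library lay below every control library, and the mean went from 219 ± 10.5 to 176 ± 6.56 CPM (SD, n = 4 per genotype). The Log2FC was -0.32 (SE 0.057, 95% interval -0.44 to -0.19, FDR = 0.000728 by edgeR), a level 0.803 times that of controls. With each library left out in turn the Log2FC stayed between -0.35 and -0.29, and the gene was called in 8 of 8 such fits. On the opposite strand its exons overlap *Cers2* over 1.09% and *Gm37500* over 3.63% of their length. Of its 100-base windows, 5.61% recur in other annotated genes, *Gm4349* among them. *Gm4349* stood at 1.35 CPM in controls and 0.804 CPM in *Bmpr1a*-cKO (Log2FC -0.77, FDR = 0.0426 by edgeR), at 8 to 20 reads. The part of reads from shared or overlapping stretches in the values of *Setdb1* was not tested.

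*Trim28* and *Atf7ip*, whose proteins act with SETDB1, rose. *Trim28* (chr7:12999114-13031035, plus strand) measured 670, 597, 711 and 587 CPM in controls and 828, 763, 817 and 785 CPM in *Bmpr1a*-cKO. All *Bmpr1a*-cKO libraries exceeded all control libraries. The mean rose from 641 ± 59.4 to 798 ± 29.7 CPM (Log2FC 0.32, SE 0.069, 95% interval 0.17 to 0.46, FDR = 0.00290 by edgeR), which is 1.24-fold. *Atf7ip* (chr6:136506167-136610862, plus strand) measured 165, 164, 163 and 175 CPM in controls against 209, 195, 195 and 202 CPM in *Bmpr1a*-cKO, again without overlap. Its mean rose from 167 ± 5.41 to 200 ± 6.80 CPM (Log2FC 0.27, SE 0.054, 95% interval 0.15 to 0.38, FDR = 0.00185 by edgeR), which is 1.20-fold. Both genes were called in 8 of 8 fits that left out a library.

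**Figure D1:**
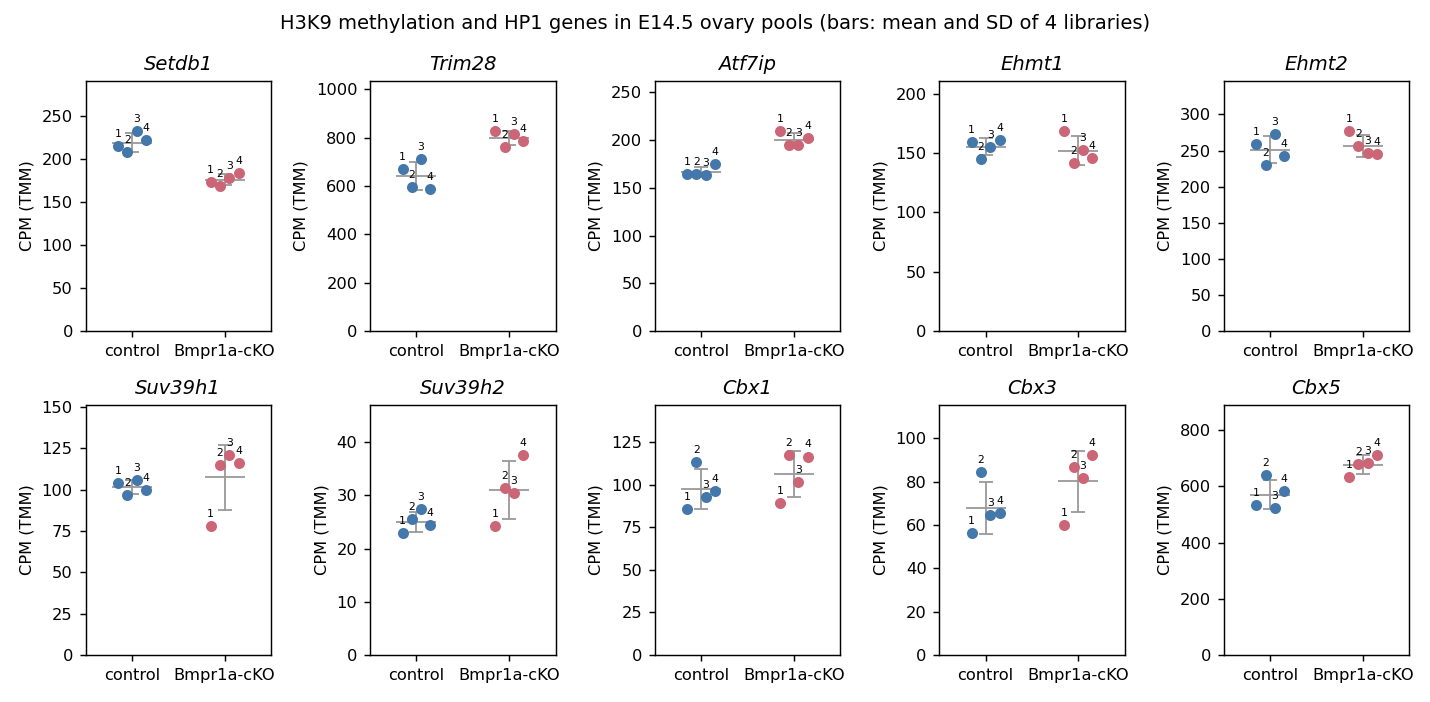
Level of each of the 10 genes in CPM (vertical axes, linear, each starting at 0) in the 4 control and the 4 *Bmpr1a*-cKO libraries, numbered by replicate, with the mean and SD in grey. *Setdb1* lies below the control libraries in all 4 *Bmpr1a*-cKO libraries, *Trim28* and *Atf7ip* lie above them, and the other 7 genes overlap.

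Since *Setdb1* moved against its partners, their ratio inside each library was compared, a measure that does not depend on how libraries are scaled. In controls there were 0.765, 0.789, 0.702 and 0.788 *Atf7ip* counts per *Setdb1* count, and in *Bmpr1a*-cKO 1.21, 1.16, 1.10 and 1.10. The ratio thus lay below 1 in every control and above 1 in every *Bmpr1a*-cKO library. For *Trim28* there were 3.11, 2.88, 3.06 and 2.65 counts per *Setdb1* count in controls and 4.77, 4.52, 4.60 and 4.26 in *Bmpr1a*-cKO. The mean log2 ratio differed by 0.58 for *Atf7ip*/*Setdb1* and by 0.64 for *Trim28*/*Setdb1* (exact permutation test, two-sided, p = 0.0286 for each, adjusted p = 0.10 over the 7 ratios compared). That p is the smallest that 4 against 4 libraries allow, and neither ratio passed 0.05 after adjustment. Because *Setdb1* lay below all controls and both partners above them in CPM, these 2 ratios had to separate. Their p-values therefore restate the values of the genes and add no further evidence. The ratios compare counts of genes of unlike length and are not ratios of molecules.

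*Suv39h2* and *Suv39h1* encode closely related enzymes. *Suv39h2* (chr2:3455815-3475031, minus strand) measured 22.9, 25.5, 27.4 and 24.4 CPM in controls and 24.3, 31.5, 30.5 and 37.7 CPM in *Bmpr1a*-cKO, and its groups overlapped through *Bmpr1a*-cKO library 1. The mean rose from 25.1 ± 1.93 to 31.0 ± 5.46 CPM (Log2FC 0.32, SE 0.11, 95% interval 0.090 to 0.56, FDR = 0.0364 by edgeR). This was the widest interval of the 5 called genes, and the call held in only 2 of 8 fits that left out a library. It was lost without control 1 (FDR = 0.104), control 2 (0.0571), control 4 (0.0969), *Bmpr1a*-cKO 2 (0.0842), *Bmpr1a*-cKO 3 (0.0652) or *Bmpr1a*-cKO 4 (0.172), and the Log2FC without the last of these was 0.20. With library size alone as the scaling the FDR was 0.0769. Over 8.10% of its exon length *Suv39h2* overlaps *Dclre1c* on the opposite strand, which measured 8.94 to 13.3 CPM over all libraries (Log2FC -0.029, FDR = 0.904 by edgeR).

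*Suv39h1* (chrX:8061171-8074760, minus strand) measured 104, 96.6, 106 and 99.6 CPM in controls and 78.0, 115, 121 and 116 CPM in *Bmpr1a*-cKO. Library 1 of *Bmpr1a*-cKO lay below all controls and the other three above them. The Log2FC was 0.088 (SE 0.10, 95% interval -0.13 to 0.31, FDR = 0.564 by edgeR). Without *Bmpr1a*-cKO library 1 it was 0.21 (FDR = 0.0104), so that this library decides the call. Exons of the antisense gene *Gm14820* cover 14.6% of the exon length of *Suv39h1*, and as it is not given whether strand was used in counting, reads from that stretch cannot be assigned to either gene. The *Suv39h2*/*Suv39h1* count ratio was 0.247 ± 0.0199 in controls and 0.291 ± 0.0336 in *Bmpr1a*-cKO, with overlap (exact permutation test, two-sided, p = 0.0857, adjusted p = 0.20).

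The G9a and GLP genes did not pass the test. *Ehmt2* (chr17:34898469-34914052, plus strand) measured 259, 230, 272 and 242 CPM in controls and 277, 256, 247 and 245 CPM in *Bmpr1a*-cKO. *Ehmt1* (chr2:24789928-24919614, minus strand) measured 160, 145, 155 and 161 CPM in controls and 169, 141, 153 and 146 CPM in *Bmpr1a*-cKO. The groups overlapped for both genes. The Log2FC of *Ehmt2* was 0.030 (95% interval -0.11 to 0.17, FDR = 0.774 by edgeR) and that of *Ehmt1* was -0.033 (-0.17 to 0.11, FDR = 0.747 by edgeR), and the sign of each turned in at least 1 fit that left out a library. Both intervals lie inside the DEG threshold of 0.5 in either direction. The *Ehmt1*/*Ehmt2* count ratio was 0.621 ± 0.0398 in controls and 0.594 ± 0.0295 in *Bmpr1a*-cKO (exact permutation test, two-sided, p = 0.343, adjusted p = 0.40).

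Of the HP1 genes, *Cbx5* passed the test and *Cbx1* and *Cbx3* did not. *Cbx5* (chr15:103191544-103239816, minus strand) measured 535, 640, 524 and 584 CPM in controls and 632, 680, 682 and 712 CPM in *Bmpr1a*-cKO. Only control 2 and *Bmpr1a*-cKO 1 overlapped. The mean rose from 571 ± 52.8 to 676 ± 33.4 CPM (Log2FC 0.25, SE 0.070, 95% interval 0.097 to 0.39, FDR = 0.0155 by edgeR). Without control 1, control 3 or *Bmpr1a*-cKO 4 the FDR was 0.0573, 0.0577 and 0.0530, and with library size alone as the scaling it was 0.0663.

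*Cbx3* (chr6:51470360-51483704, plus strand) measured 56.1, 84.6, 64.4 and 65.6 CPM in controls and 59.9, 86.6, 81.5 and 92.4 CPM in *Bmpr1a*-cKO. Its Log2FC of 0.25 was as large as that of *Cbx5*, but its SE was 0.13 (95% interval -0.016 to 0.52, FDR = 0.151 by edgeR). Control library 2 was well above the other controls and *Bmpr1a*-cKO library 1 well below the other *Bmpr1a*-cKO libraries. Without control 2 the Log2FC was 0.37 (FDR = 0.0284) and without *Bmpr1a*-cKO 1 it was 0.36 (FDR = 0.0117). Sequences of 100 bases shared with 8 other annotated genes make up 6.91% of its exon windows, so that reads there cannot be assigned with certainty.

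*Cbx1* (chr11:96789127-96808640, plus strand) measured 85.8, 114, 92.8 and 96.5 CPM in controls and 89.3, 117, 101 and 116 CPM in *Bmpr1a*-cKO (Log2FC 0.13, SE 0.094, 95% interval -0.067 to 0.33, FDR = 0.317 by edgeR). Control 2 was again the highest control, and *Bmpr1a*-cKO 1 the lowest of its group. *Bmpr1a*-cKO library 1 was the lowest of its group for *Suv39h1*, *Suv39h2* and all 3 HP1 genes and the highest for *Trim28*, *Atf7ip*, *Ehmt1* and *Ehmt2*. It also had the lowest summed level of germ cell markers and the fewest counts in that group. Whether these go together was not tested.

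No ratio among the HP1 genes passed the test. There were 8.53 ± 0.866 *Cbx5* counts per *Cbx3* count in controls and 8.62 ± 1.32 in *Bmpr1a*-cKO (exact permutation test, two-sided, p = 0.971). The *Cbx1*/*Cbx3* ratio was 1.45 ± 0.0786 and 1.34 ± 0.114 (p = 0.20, same exact test), and the *Cbx1*/*Cbx5* ratio was 0.170 ± 0.00858 and 0.157 ± 0.0142 (p = 0.143, same exact test). After adjustment over the 7 ratios the p-values were 0.971, 0.28 and 0.25. All 3 ratios overlapped between the genotypes, which does not show them to be equal.

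**Figure D2:**
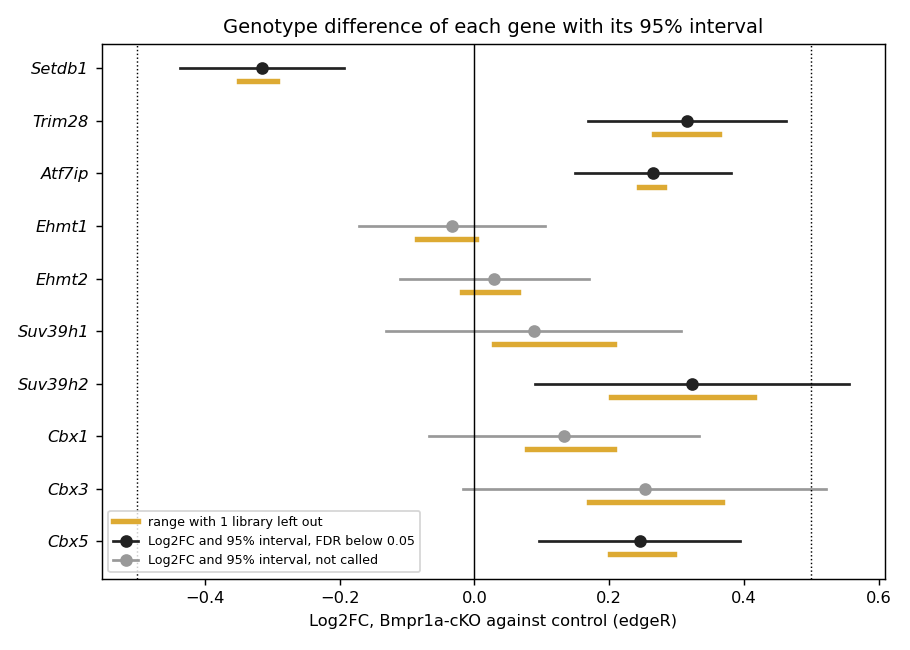
Log2FC of each gene in *Bmpr1a*-cKO against control (horizontal axis) with its 95% interval, black where the FDR was below 0.05 and grey where it was not. Yellow bars give the range of Log2FC with 1 library left out, and dotted lines mark the DEG threshold of 0.5, which no point estimate reached.

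**Figure D3:**
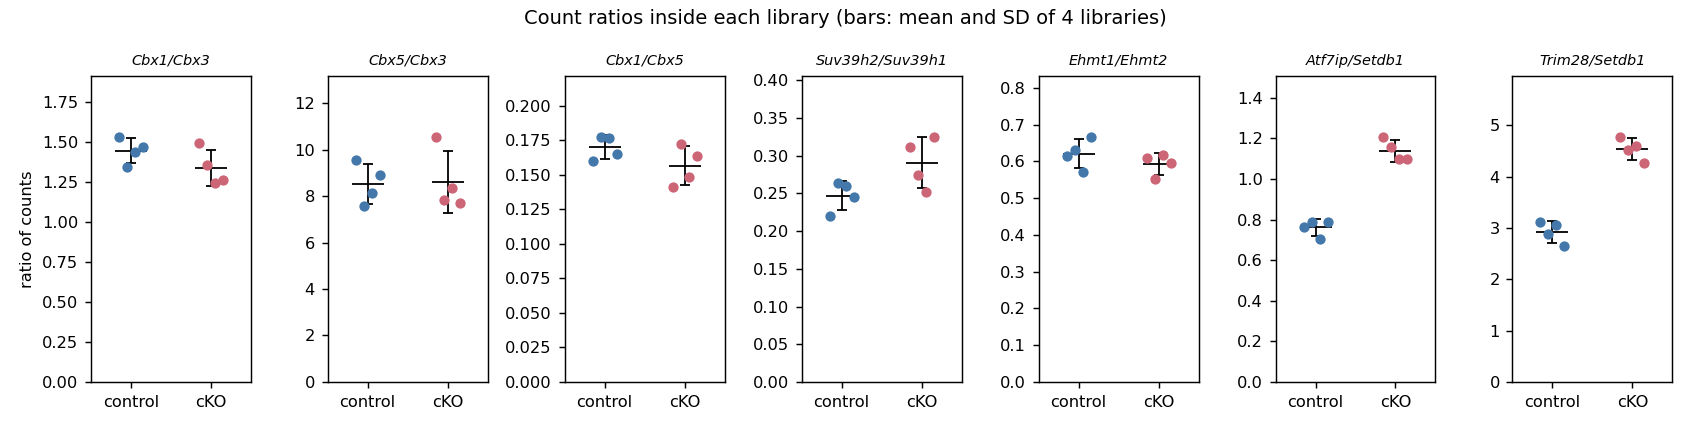
Count ratios of gene pairs inside each library (vertical axes, linear, each starting at 0), with the mean and SD,, for the 4 control and 4 *Bmpr1a*-cKO libraries. *Atf7ip*/*Setdb1* and *Trim28*/*Setdb1* were separated without overlap, which follows from the separate levels of these genes, while the other 5 ratios overlapped.

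Levels of different genes were compared as CPM per kb of merged exons. In controls *Trim28* had the highest level at 154 ± 14.3 CPM per kb, followed by *Cbx5* (63.4 ± 5.86), *Ehmt2* (45.7 ± 3.40), *Setdb1* (32.0 ± 1.54), *Cbx1* (22.7 ± 2.75), *Suv39h1* (19.2 ± 0.770), *Ehmt1* (19.1 ± 0.899), *Cbx3* (11.3 ± 2.01), *Atf7ip* (8.04 ± 0.261) and *Suv39h2* (5.68 ± 0.437 CPM per kb, SD, n = 4). *Suv39h1* and *Ehmt1* were not separated by their spread. For every other pair of neighbours in that order the lowest control library of the upper gene was above the highest of the lower gene. The order of the means was the same in *Bmpr1a*-cKO, where *Trim28* stood at 192, *Setdb1* at 25.7 and *Atf7ip* at 9.67 CPM per kb. The merged exons of *Atf7ip* sum to 20.7 kb, more than any other of the 10, and a level per kb falls with the length annotated.

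*Suv39h2* had the largest absolute Log2FC among the called genes, and the genes nearest to its profile were sought. Over the 8 libraries, the centred log2 CPM profiles closest to it by Euclidean distance included those of *Cep55* (distance 0.14, Log2FC 0.30) and *Hltf* (distance 0.18, Log2FC 0.30). Some gene is nearest to any profile, and these distances were not set against a reference, so the names are a description.

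Other genes of the pathway, along with 8 *Mage-a* germline genes that are not part of it, were taken as 6 lists of 52 genes in all. The lists were chosen with earlier results of these data known, so their counts beside the shares of all genes are a description. Of the 52, 45 were tested. Among the 45, 9 were higher and 7 lower, beside the 17.3% and 12.5% of all genes called higher and lower. DEGs among the 45 were 5 higher and 4 lower, beside 871 higher and 578 lower among the 14249 genes tested. The *Mage-a* genes supplied 2 of the higher genes, both DEGs. One of them, *Magea4*, could only be called higher, as described for its family. The median Log2FC of the 45 was -0.019. No gene passed the test among the 3 tested other H3K9 methyltransferases (*Prdm2*, *Mecom* and *Prdm16*) or the 6 G9a and GLP partners, where the lowest FDR was 0.141 by edgeR. *Ehmt1* and *Ehmt2* were likewise uncalled.

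Among 11 partners of SETDB1 and TRIM28, including the HUSH silencing complex, 3 were lower and 2 higher. The shares among all genes tested were 12.5% lower and 17.3% higher. *Atf7ip2*, a paralogue of *Atf7ip*, fell from 25.9, 22.8, 28.1 and 29.6 CPM in controls to 8.11, 11.5, 12.8 and 14.7 CPM in *Bmpr1a*-cKO (Log2FC -1.15, SE 0.14, FDR = 1.74e-05 by edgeR). The paralogues thus moved in opposite directions, each without overlap, as were 27.9% of all genes tested. *Mphosph8*, the chromodomain subunit of HUSH, fell from 117 ± 1.93 to 79.4 ± 15.5 CPM (Log2FC -0.55, FDR = 0.000944 by edgeR), with 57.9 CPM in *Bmpr1a*-cKO 1 and 80.7 to 94.6 CPM in the others. *Morc2a*, an ATPase that works with HUSH, fell from 199 ± 14.3 to 150 ± 3.55 CPM (Log2FC -0.41, FDR = 0.000143 by edgeR). *Zfp809*, a KRAB zinc finger gene that recruits TRIM28 to proviruses, rose from 17.0 ± 1.33 to 21.5 ± 0.971 CPM (Log2FC 0.33, FDR = 0.00794 by edgeR).

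Of 11 H3K9 demethylase genes, 2 were lower and 1 higher, beside 12.5% lower and 17.3% higher among all genes tested. *Kdm4d* measured 3.70, 2.57, 3.18 and 2.84 CPM in controls and 0.954, 1.12, 1.15 and 1.23 CPM in *Bmpr1a*-cKO (Log2FC -1.44, SE 0.22, FDR = 0.000166 by edgeR), at low counts. *Phf8*, a demethylase of mono- and dimethylated H3K9, fell from 127 ± 8.67 to 88.6 ± 5.04 CPM (Log2FC -0.52, FDR = 3.27e-05 by edgeR). *Kdm1a* (LSD1) rose from 156 ± 4.40 to 193 ± 7.47 CPM (Log2FC 0.31, FDR = 0.000649 by edgeR). None of these 3 genes overlapped between the genotypes, which also held for 27.9% of all genes tested.

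Among 12 HP1 partners and heterochromatin proteins, 4 were higher and 2 lower, beside 17.3% higher and 12.5% lower among all genes tested. *Chaf1b*, a subunit of the chromatin assembly factor CAF-1 that acts at replication forks, rose from 27.0 ± 3.95 to 46.4 ± 1.70 CPM (Log2FC 0.78, FDR = 1.53e-05 by edgeR). *Smchd1*, a silencing protein of the inactive X chromosome, measured 145, 152, 162 and 156 CPM in controls and 229, 274, 250 and 268 CPM in *Bmpr1a*-cKO (Log2FC 0.73, SE 0.065, FDR = 1.41e-06 by edgeR). *Lbr*, the lamin B receptor that binds HP1 at the nuclear envelope, rose from 100 ± 4.64 to 161 ± 15.5 CPM (Log2FC 0.69, FDR = 5.33e-06 by edgeR). *Lrif1*, an HP1-binding partner of SMCHD1, fell from 20.4 ± 1.56 to 15.8 ± 1.41 CPM (Log2FC -0.37, FDR = 0.00828 by edgeR). The S phase and G2/M sums given above were higher in *Bmpr1a*-cKO, and their part in the values of these genes was not tested.

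Of 8 *Mage-a* genes, germline genes of the X chromosome, 2 had enough counts to be tested. *Magea4* measured 0.411, 0.797, 0.843 and 0.379 CPM in controls and 1.67, 1.26, 1.88 and 1.71 CPM in *Bmpr1a*-cKO (fitted Log2FC 1.45). It passed the filter on low counts only through the *Bmpr1a*-cKO libraries, so that only a rise could be found, and its values are a description without a test. *Magea10*, which passed the filter in both genotypes, rose from 1.23, 1.24, 1.03 and 1.14 CPM to 1.67, 2.16, 3.35 and 4.03 CPM (Log2FC 1.30, SE 0.28, FDR = 0.00273 by edgeR). Neither gene overlapped between the genotypes, beside 27.9% of all genes tested that did not. The counts were 5 to 25 reads for *Magea4* and 11 to 59 reads for *Magea10*, members of this family resemble each other in sequence, and a floor of 3 counts equals 0.189 to 0.358 CPM, so both values are uncertain. *Magea1* had 0 counts in all 8 libraries.

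**Figure D4:**
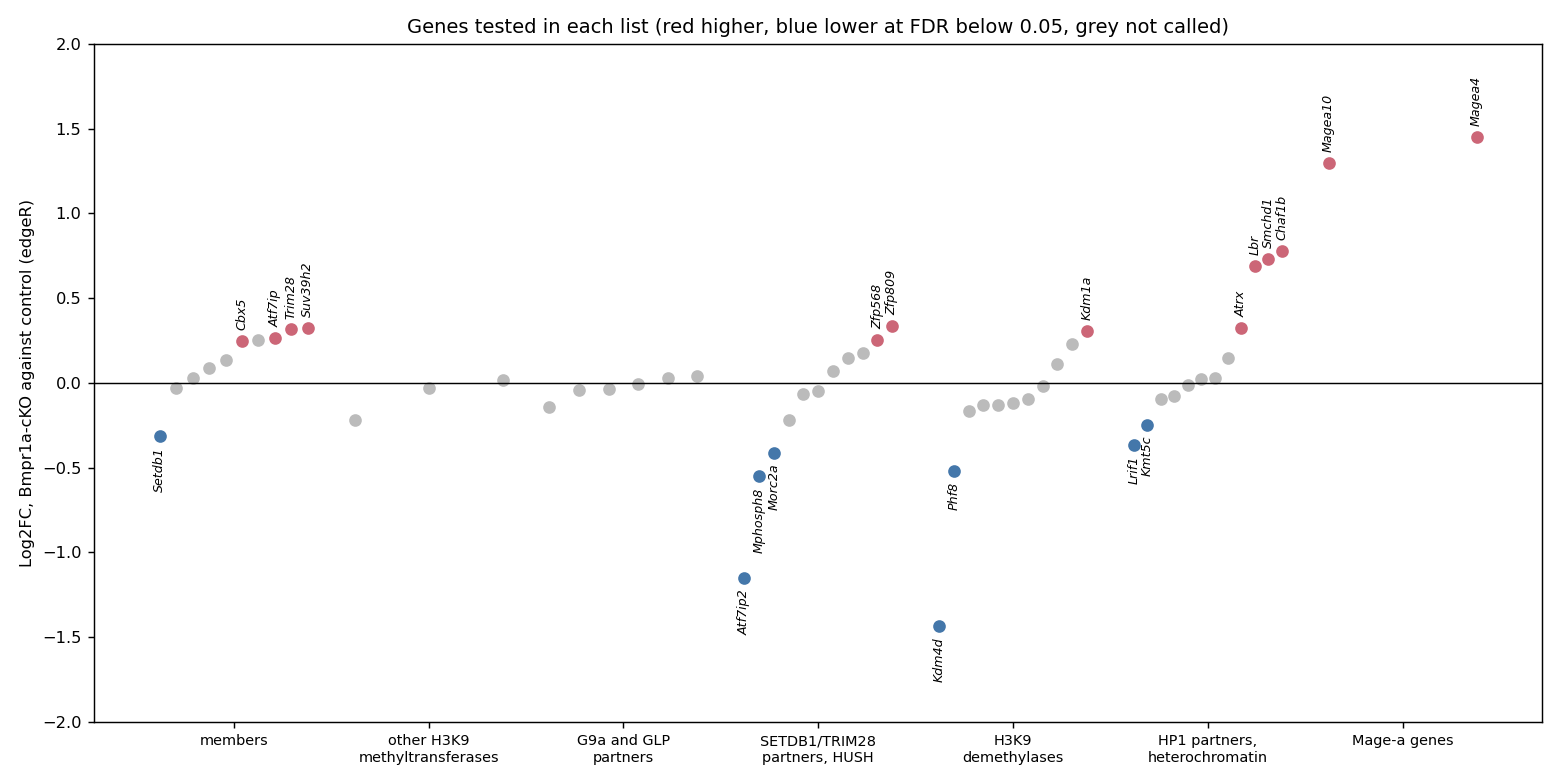
Log2FC in *Bmpr1a*-cKO against control (vertical axis) of each tested gene of the 10 described here and of the 6 other lists, where red and blue points are genes higher and lower at an FDR below 0.05 and grey points are not called. The 10 genes lay between -0.32 and 0.32, *Atf7ip2* at -1.15 and *Kdm4d* at -1.44, and *Magea4* (1.45) entered only through its *Bmpr1a*-cKO libraries.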

How the data were processed

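RNA-Seq was analysed from 8 libraries made from 500 ng of RNA each with a directional kit. The authors trimmed reads with Trimmomatic (0.39), mapped them with STAR (2.5.2) to mm10, and counted reads per gene with STAR. The deposited values are raw counts, 1 whole number for each gene symbol and library. The annotation and strand setting are not given in the sources used here. A deposited CPM table was not used.

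CPM and tests were computed with R 4.3.3, edgeR 4.0.16 (filterByExpr, TMM, quasi-likelihood F test, two-sided, Benjamini-Hochberg FDR over all 14249 genes tested) and limma 3.58.1, with DESeq2 1.42.0 as an alternative. The scaling factors of TMM were 1.00 to 1.03 (control) and 0.972 to 0.990 (cKO). DEGs had FDR below 0.05 and an absolute Log2FC above 0.5. Scripts were tested on simulated data. Ratios were compared by exact permutation (70 arrangements). Exons and overlaps follow GENCODE vM21 on mm10. Total counts per library ranged from 8562961 to 15365052, and floors cover counting error only. Libraries are separate pools, but their litters are not named.

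Members, lists and tests were chosen with earlier results of these data known. Genes named were all 10 members, up to 4 called genes per list with the largest absolute Log2FC, and the 3 nearest profiles to the called member with the largest absolute Log2FC, of which 1 is not reported here. *Gcna*, among 10 germ cell markers, had no match. Alternatives were the likelihood ratio test, limma-voom, DESeq2, RLE, library size and germ cell marker scaling, other filters, *Rn45s* left out, the replicate number as a block, and each library left out. For ratios they were a pseudocount of 0.5, the block and each library left out.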

Additional observations from a re-analysis of the deposited data

Results flagged for a closer look

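Each group of 4 libraries was examined for a library far from the other 3, by the gap to its neighbour over the whole range (Dixon's criterion at 95%), in 34 groups. Chance flags about 1 in 20 such groups, and 2 were found. *Suv39h1* measured 78.0 CPM in *Bmpr1a*-cKO library 1 and 115 to 121 CPM in the other 3, a gap of 0.849 of the range. *Atf7ip* measured 175 CPM in control library 4 and 163 to 165 CPM in the other 3, a gap of 0.888 of the range, and it was called with that library left out.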

How the results depend on the processing

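*Setdb1*, *Trim28* and *Atf7ip* kept their direction and call in 9 of 9 alternatives other than germ cell marker scaling. Under that scaling 0 of the 10 genes were called higher and 0 lower, at Log2FC -0.40 for *Setdb1* (FDR = 0.240), 0.24 for *Trim28* (FDR = 0.585) and 0.18 for *Atf7ip* (FDR = 0.707). The genes of the 6 other lists gave 5 higher and 4 lower. Among all genes it called 495 higher and 560 lower, against 2461 and 1781 in the reported fit, and the cause was not tested. With library size alone, 2 of the 10 genes were higher, and all genes split into 1871 higher and 2466 lower. With 1 library left out, 2 to 6 of the 10 genes were higher. Among all genes the number higher also moved, from 1871 of 14316 (without control 4) to 2806 of 14427 (without *Bmpr1a*-cKO 1). *Ehmt2* turned to -0.021 with library size alone and -0.038 with germ cell marker scaling, and ran from -0.018 (without control 2) to 0.064 with a library left out. *Suv39h1* turned to -0.035 with germ cell marker scaling and *Ehmt1*, at -0.085 to 0.0017 with a library left out, turned without *Bmpr1a*-cKO 2. The *Cbx5*/*Cbx3* log2 difference ran from -0.093 to 0.064 with a library left out. With the replicate number as a block, 5 of the 10 genes were higher, *Cbx3* among them (Log2FC 0.25, FDR = 0.0194), and all genes gave 2715 higher and 2056 lower. Same-number libraries correlated in their deviations at 0.20, 0.16, 0.11 and -0.087, and not every library correlated best with its own number, so the numbers were not taken to pair them. A library of 8562961 counts limits genes of few reads, such as *Suv39h2* (204 to 552 reads).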
